A study of Mus musculus with 12 samples.

Results

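The set described here is 10 genes, the CC and CXC chemokine genes Cxcl1, Cxcl2, Cxcl9, Cxcl10, Cxcl12, Cxcl13, Ccl2, Ccl5, Ccl6 and Ccl24, out of 30827 genes that had a feature of their own on the array. A member is the array feature whose symbol in the platform annotation is one of these 10 names, and where a gene had several features the one of highest mean would have been taken; each of the 10 had 1 feature. The livers came from ENT3 -/- (KO) mice and ENT3 +/+ (WT) mice, all C57BL6/J and all killed at 12 weeks of age, and each liver was hybridised to its own Affymetrix array. There were 4 groups of 3 mice: the KO females are numbered 13, 40 and 69, the WT females 25, 27 and 38, the KO males 18, 19 and 39, and the WT males 17, 23 and 33, after the number and letter in the titles. ENT3 is the nucleoside transporter of lysosomes and mitochondria encoded by Slc29a3; the labels do not say how the allele was made or in which cells it is lost. Nor do they name litters or array batches, so the p-values below measure the spread between these mice only.

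Chemokines are small secreted proteins that guide leukocytes along gradients by binding receptors on the cell surface. CXC members that carry a glutamate-leucine-arginine motif (Cxcl1, Cxcl2) draw neutrophils, those induced by interferon gamma (Cxcl9, Cxcl10) draw activated T cells, and Cxcl12 and Cxcl13 position haematopoietic cells and B cells. The CC members draw monocytes (Ccl2), T cells and monocytes (Ccl5), myeloid cells (Ccl6) and eosinophils (Ccl24). In the liver, Kupffer cells, endothelium, stellate cells and hepatocytes can all release them, and infiltrating leukocytes bring more.

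Signals are the deposited log2 values, and a difference between groups is a difference of mean log2 signals, KO minus WT. The 95th percentile of the negative control features, 6.20 to 6.83 over the 12 arrays, is used as a mark of background. This mark was higher in KO arrays (6.40 to 6.83) than in WT arrays (6.20 to 6.39; exact permutation p = 0.005). A KO signal therefore had a higher mark to pass. A feature was called changed at a limma adjusted p under 0.05 after Benjamini-Hochberg adjustment over all 65956 transcript features. Slc29a3 itself averaged 4.13 ± 0.04 in KO and 5.07 ± 0.18 in WT livers (SD, n = 6 each), lower in every KO mouse than in every WT mouse, although no array had it above the negative control percentile. Its difference was -0.94 ± 0.07 (SE; limma adjusted p = 0.000324). Sex-linked transcripts fitted the title letters: Xist lay at 10.28 to 12.39 in females and 4.18 to 4.45 in males. Other array measures also differed by genotype. The positive control median averaged 8.12 in KO and 8.51 in WT arrays (exact permutation p = 0.01). The negative control median averaged 3.93 in KO and 3.80 in WT arrays (exact permutation p = 0.005), and the mean of the poly-A spikes, RNAs added before labelling, averaged 5.44 ± 0.36 in KO and 6.30 ± 0.32 in WT arrays (SD, n = 6 each; exact permutation p = 0.005, the smallest that 400 arrangements of genotype within sex can give, and 0.01 after adjustment over 6 measures). The poly-A mean ran from 5.10 to 6.06 in KO and from 5.98 to 6.81 in WT arrays, so the genotypes overlapped little in it. WT females 25 and 27 stood apart from the other 10 livers: the mean of 7 exocrine pancreas transcripts was 10.37 and 8.52 in them and 3.78 to 3.93 in the others, so the main counts are also given without both. WT female 38 correlated slightly more with the WT males (r = 0.992) than with the other WT females (0.988 to 0.989).

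Over both sexes, 2 of the 10 chemokine genes were called higher in KO liver, Cxcl13 and Ccl6, and 0 were called lower, where 9.75% of all features were called (5.28% higher and 4.47% lower, or 3482 and 2950 features; with quantile normalization 2555 and 4091). By unadjusted p under 0.05 the count was 8, of which 6 were higher and 2 (Cxcl12 and Ccl24) lower. The share of all features under that unadjusted limit is not given here, so this count cannot be read as an excess. Of the 5 members above the negative control percentile on at least 3 arrays, 2 were called, both higher, where 36.5% of the 10483 such features were called (16.2% higher and 20.2% lower). When only those 10483 were fitted, 47.6% of them were called and 4 of the 5 members (Cxcl9, Cxcl13 and Ccl6 higher and Cxcl12 lower). The median difference over the 10 genes was 0.72, against 0.0478 over all features. Without WT females 25 and 27, a choice made after seeing the data, 2 members were called, Cxcl13 higher (5.38, limma adjusted p = 0.0137) and Ccl24 lower (-0.45, limma adjusted p = 0.0148), while Ccl6 was no longer called (1.91, limma adjusted p = 0.0864). With the poly-A spike mean as a covariate 0 members were called (Cxcl13 at 10.65, limma adjusted p = 0.0971, and Ccl6 at 2.55, limma adjusted p = 0.511), and 3 of all features. In a bulk liver, more cells of a type and more RNA per cell cannot be told apart.

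**Figure D1:**
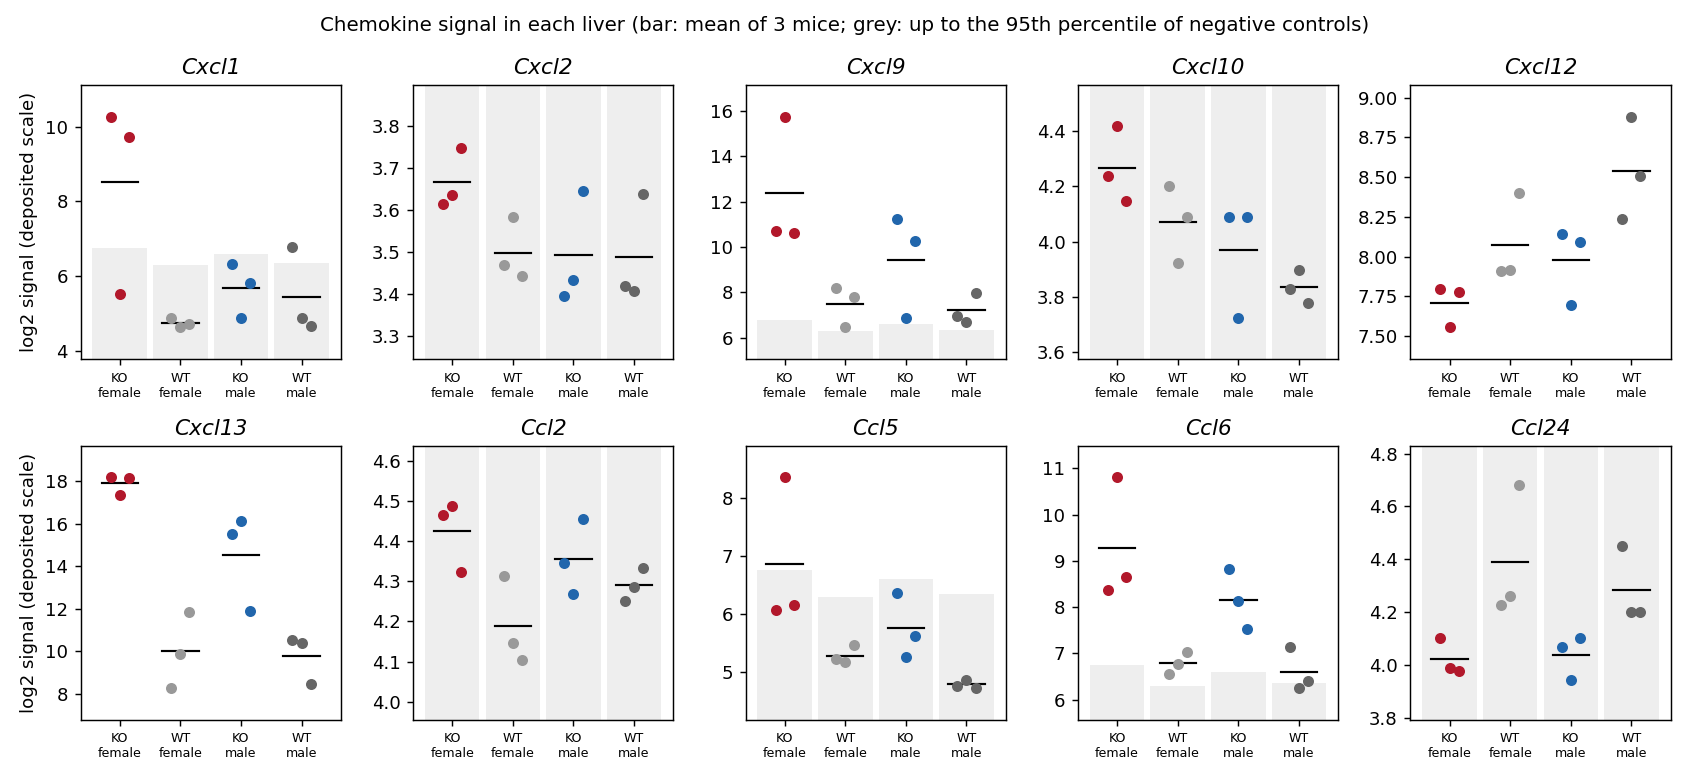
Deposited log2 signal (vertical axis) of each of the 10 chemokine genes in each of the 12 mice, with KO and WT side by side within each sex; every point is a mouse and each short bar a group mean, and grey reaches up to the 95th percentile of the negative controls. Cxcl13 and Ccl6 lie higher in all 6 KO mice than in all 6 WT mice, whereas Cxcl2, Cxcl10, Ccl2 and Ccl24 stay below the negative control percentile on every array.

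Cxcl13, the ligand of Cxcr5 that draws B cells into lymphoid follicles, showed the largest difference of the 10 genes. Its log2 signal was 18.19, 17.34 and 18.16 in KO females 13, 40 and 69, against 8.25, 9.85 and 11.85 in WT females 25, 27 and 38. In males it was 15.50, 16.11 and 11.91 in KO mice 18, 19 and 39, against 10.53, 10.38 and 8.43 in WT mice 17, 23 and 33. The 3 KO females sat close together at the top, and the KO and WT ranges did not overlap, but the lowest KO value, in KO male 39, exceeded the highest WT value, in WT female 38, only narrowly. All 12 arrays had it above the negative control percentile. It averaged 16.20 ± 2.37 in KO and 9.88 ± 1.36 in WT livers (SD, n = 6 each), a difference of 6.32 ± 0.82 (SE; 95% confidence interval 4.50 to 8.14; limma adjusted p = 0.00185), or 79.8-fold on the deposited scale. Leaving out any 1 mouse kept the call, with differences of 5.89 to 6.97. The promoter of Cxcl13 is shown because this gene carries the strongest result; it is the 250 bases before the annotated start at chr5:95956689-95956938 of GRCm38.p6, plus strand, from RefSeq, and the capitals mark a TATA box (TATAAA, searched on the gene's strand) that begins at position -46, counted backwards from the start.
Cxcl13: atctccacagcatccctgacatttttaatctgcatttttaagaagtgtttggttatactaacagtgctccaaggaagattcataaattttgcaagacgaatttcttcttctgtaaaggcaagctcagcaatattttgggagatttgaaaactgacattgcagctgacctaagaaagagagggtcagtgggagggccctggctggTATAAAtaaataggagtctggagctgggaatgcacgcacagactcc

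No NF-kB consensus or interferon-stimulated response element was found in those letters, which says only that the letters are not in this window. Among all 32851 RefSeq promoters searched over the same 250 bases, 7.59% held that TATA box, 7.25% an NF-kB consensus on either strand and 2.98% an interferon-stimulated response element (2 copies of GAAA with any 2 bases between them, on either strand). Promoters of 7 of the 10 chemokine genes were in the table; Ccl2, Ccl5 and Ccl24 were not.

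Cxcl12, the ligand of Cxcr4 and Ackr3 made by stromal and endothelial cells, leaned the other way. It measured 7.80, 7.55 and 7.78 in KO females 13, 40 and 69, against 7.91, 7.91 and 8.40 in WT females 25, 27 and 38. The males gave 8.14, 7.70 and 8.09 for KO 18, 19 and 39, against 8.24, 8.88 and 8.50 for WT 17, 23 and 33. Within each sex every KO liver was below every WT liver, but the sexes together overlapped, since KO males 18 and 39 exceeded WT females 25 and 27. The difference over both sexes was -0.46 ± 0.14 (SE; 95% confidence interval -0.77 to -0.16), which missed the threshold (limma adjusted p = 0.061). With each array centred on its median it was -0.53 and was called (limma adjusted p = 0.0309), as it was without WT male 17 (-0.54, limma adjusted p = 0.0409).

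The neutrophil chemokines come next, and no test compared them with each other. Cxcl1, a ligand of Cxcr2, measured 10.27, 5.53 and 9.73 in KO females 13, 40 and 69, against 4.89, 4.64 and 4.72 in WT females 25, 27 and 38. Its male values were 6.34, 4.89 and 5.82 in KO 18, 19 and 39, against 6.79, 4.90 and 4.68 in WT 17, 23 and 33. Only KO females 13 and 69 and WT male 17 exceeded the negative control percentile, so the high values belong to 2 KO livers and 1 WT liver, and the male groups overlapped. The difference over both sexes was 1.99 ± 0.76 (SE; 95% confidence interval 0.30 to 3.68) and was not called (limma adjusted p = 0.142). Leaving out KO female 40 gave 2.74 with a limma adjusted p of 0.00474, the only 1 of the 12 fits with a mouse left out in which Cxcl1 was called.

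Cxcl2, which shares Cxcr2 and lies next to Cxcl1 on chromosome 5 with 0 protein-coding genes between them in RefSeq, stayed between 3.39 and 3.75 in KO livers and between 3.41 and 3.64 in WT livers. No array had it above the negative control percentile, and its difference was 0.08 ± 0.06 (SE; limma adjusted p = 0.49). Neither gene of this neighbouring pair was called, and no test compared them. Their promoters are shown because they hold the same 11 letters. Both are RefSeq windows of 250 bases on the plus strand of GRCm38.p6, chr5:90890995-90891244 for Cxcl1 and chr5:90903649-90903898 for Cxcl2. The capitals mark the NF-kB consensus, which matches on both strands and begins at position -71 in Cxcl1 and at position -97 in Cxcl2.
Cxcl1: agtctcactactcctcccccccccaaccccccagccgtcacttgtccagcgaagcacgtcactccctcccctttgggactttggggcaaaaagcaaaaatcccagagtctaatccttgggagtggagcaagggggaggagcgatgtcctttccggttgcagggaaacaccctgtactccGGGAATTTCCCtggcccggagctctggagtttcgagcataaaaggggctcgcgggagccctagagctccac
Cxcl2: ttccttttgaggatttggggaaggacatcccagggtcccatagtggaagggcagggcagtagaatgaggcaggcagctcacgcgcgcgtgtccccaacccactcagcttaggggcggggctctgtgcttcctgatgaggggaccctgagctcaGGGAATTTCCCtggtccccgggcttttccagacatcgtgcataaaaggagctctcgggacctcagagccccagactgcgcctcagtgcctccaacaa

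Cxcl9, the interferon gamma-induced ligand of Cxcr3, gave the second largest difference but was not called. KO females 13, 40 and 69 had 10.73, 15.76 and 10.62, against 8.17, 6.45 and 7.80 in WT females 25, 27 and 38. KO males 18, 19 and 39 had 11.22, 6.84 and 10.25, against 6.94, 6.70 and 7.96 in WT males 17, 23 and 33. In all, 5 of the 6 KO livers lay above every WT liver of either sex, and KO male 19 lay inside the WT range; all 12 arrays exceeded the negative control percentile. The difference was 3.57 ± 1.01 (SE; 95% confidence interval 1.33 to 5.81; limma adjusted p = 0.0525). Without KO male 19 it was 4.22 (limma adjusted p = 0.021), without KO female 69 the limma adjusted p was 0.0498, and without WT females 25 and 27 3.40 (limma adjusted p = 0.197).

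Cxcl10, the other interferon-induced Cxcr3 ligand in the set and 1 protein-coding gene away from Cxcl9, lay at 3.73 to 4.42 in KO and 3.78 to 4.20 in WT livers, below the negative control percentile on every array. Its difference of 0.16 ± 0.08 (SE) was not called (limma adjusted p = 0.274). The promoter of Cxcl10 (chr5:92348890-92349139 of GRCm38.p6, minus strand, from RefSeq) is shown because it alone among the 7 held an interferon-stimulated response element, at position -213, together with NF-kB consensus matches from positions -159 and -104, all in capitals.
Cxcl10: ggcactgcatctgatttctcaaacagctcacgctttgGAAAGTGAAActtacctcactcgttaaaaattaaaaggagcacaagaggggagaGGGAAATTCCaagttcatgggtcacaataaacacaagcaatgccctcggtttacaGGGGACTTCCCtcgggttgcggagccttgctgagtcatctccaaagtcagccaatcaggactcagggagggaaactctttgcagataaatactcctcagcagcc

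The Cxcl9 window held a TATA box at position -195 and neither of the other motifs, and the Cxcl12 window held none of the 3.

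Among the CC genes, Ccl6, a chemokine of rodents with no direct human counterpart that is made by macrophages and other myeloid cells, was called. It measured 8.37, 10.81 and 8.65 in KO females 13, 40 and 69, against 6.56, 6.76 and 7.02 in WT females 25, 27 and 38. The male livers gave 8.82, 8.13 and 7.53 for KO 18, 19 and 39, against 7.14, 6.25 and 6.40 for WT 17, 23 and 33. Every KO liver exceeded every WT liver, with KO female 40 the highest and KO male 39 the lowest of the KO group. The means were 8.72 ± 1.12 in KO and 6.69 ± 0.35 in WT livers (SD, n = 6 each), a difference of 2.03 ± 0.41 (SE; 95% confidence interval 1.12 to 2.94; limma adjusted p = 0.0123), or 4.08-fold on the deposited scale. The call held without any 1 mouse, with differences of 1.65 to 2.25 and limma adjusted p of 0.00493 to 0.035. Its RefSeq promoter window, shown as the second gene that was called, lies on the minus strand at chr11:83593088-83593337 of GRCm38.p6 and held none of the 3 motifs, so it has no capitals.
Ccl6: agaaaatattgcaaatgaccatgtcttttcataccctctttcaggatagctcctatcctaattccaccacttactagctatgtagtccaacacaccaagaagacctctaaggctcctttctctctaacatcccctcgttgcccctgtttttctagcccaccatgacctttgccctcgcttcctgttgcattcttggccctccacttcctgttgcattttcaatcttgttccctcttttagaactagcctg

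Ccl5, a ligand of Ccr1 and Ccr3 made by T cells, NK cells and macrophages, measured 6.07, 8.37 and 6.15 in KO females 13, 40 and 69, against 5.22, 5.16 and 5.45 in WT females 25, 27 and 38. In males the values were 6.37, 5.25 and 5.62 in KO 18, 19 and 39, against 4.76, 4.86 and 4.71 in WT 17, 23 and 33. Each KO liver was above every WT liver of its own sex, while over both sexes KO male 19 fell within the WT range. KO female 40 alone exceeded the negative control percentile. The difference, 1.28 ± 0.37 (SE; 95% confidence interval 0.45 to 2.10), missed the threshold (limma adjusted p = 0.0588); without KO female 40 it was 0.90 and was called (limma adjusted p = 0.0137), and it was also called without KO female 13 (1.48) or KO female 69 (1.46).

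Ccl2, the Ccr2 ligand that draws monocytes, lay at 4.27 to 4.49 in KO and 4.11 to 4.33 in WT livers and was not called (0.15 ± 0.06 SE, limma adjusted p = 0.132). Ccl24, the Ccr3 ligand that draws eosinophils, lay at 3.94 to 4.10 in KO livers, below all WT livers at 4.20 to 4.68. Its difference of -0.31 ± 0.09 (SE; 95% confidence interval -0.50 to -0.11) missed the threshold (limma adjusted p = 0.0541), but it was called with quantile normalization (-0.40, limma adjusted p = 0.0198), with centring (-0.37) and without WT female 25 (-0.35). Both features stayed below the negative control percentile on all 12 arrays, where a log2 difference says little about the size of a change in RNA.

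**Figure D2:**
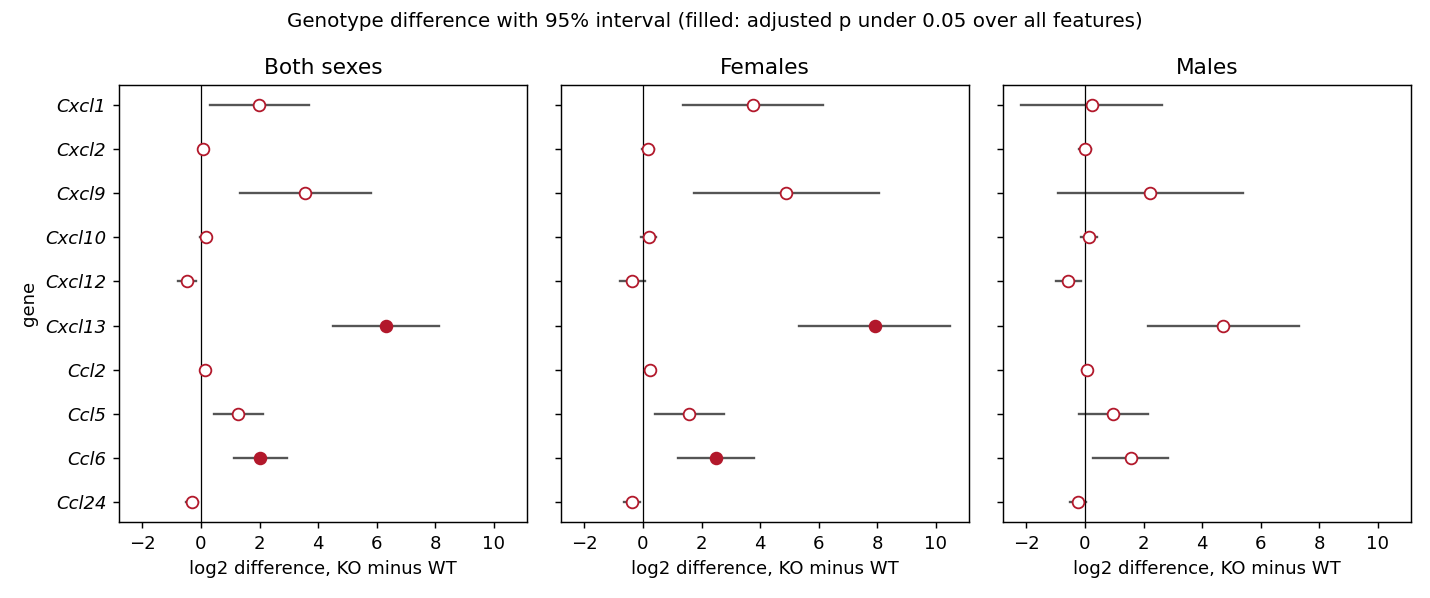
KO minus WT difference in mean log2 signal (horizontal axis) of each of the 10 genes over both sexes, in females and in males; points are limma estimates, bars are 95% confidence intervals and filled points passed an adjusted p of 0.05. Cxcl13 stands farthest from 0 at 6.32 over both sexes, and the interval of Cxcl1 in males runs from -2.17 to 2.62.

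Over both sexes every KO liver was above every WT liver for 2 genes (Cxcl13 and Ccl6) and below for 1 (Ccl24), where 3.91% of all features did not overlap (1.97% above and 1.94% below). In females 7 of the 10 genes lay wholly above in KO and 2 wholly below (Cxcl12 and Ccl24), against 25.7% of all features not overlapping (17.3% above and 8.35% below). The 7 were Cxcl1, Cxcl2, Cxcl9, Cxcl13, Ccl2, Ccl5 and Ccl6. Cxcl2 (0.17 in females), Ccl2 (0.24 in females) and Ccl24 exceeded the negative control percentile on no array. The negative control median was itself 0.136 higher in KO than in WT arrays over both sexes. In males the counts were 3 above (Cxcl13, Ccl5 and Ccl6) and 2 below (Cxcl12 and Ccl24), against 18.6% of all features (11.1% above and 7.49% below). All 6 KO mice exceeded the WT mean of their own sex for Cxcl13, Ccl5 and Ccl6, and 0 of 6 did so for Cxcl12 and Ccl24.

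Within sexes, the females had 2 genes called higher in KO and 0 lower, Cxcl13 (7.91 ± 1.16 SE, limma adjusted p = 0.00525) and Ccl6 (2.49 ± 0.58 SE, limma adjusted p = 0.0334), where 6.19% of all features were called (3.13% higher and 3.06% lower). Without WT females 25 and 27, which leaves 1 WT female that is assumed to vary like the other groups, neither was called in females (limma adjusted p = 0.0823 for Cxcl13 and 0.257 for Ccl6), and Ccl24 was called lower (-0.66). Ccl6 in females also lost its call when any 1 WT female, WT male 33 or KO female 69 was left out (limma adjusted p of 0.0518 to 0.089). Leaving out a male does not change a female difference, only the spread shared by the groups and the adjustment. In the other direction, females had Cxcl1 called without KO female 40 (5.25, limma adjusted p = 0.00318) and Cxcl9 called without KO male 19 (4.90, limma adjusted p = 0.0469). The Cxcl9 difference in females was 4.90 with all mice too. Males had 0 genes called by limma, where 1.09% of all features were called (0.579% higher and 0.506% lower). At an unadjusted p under 0.05 there were 3, a limit to which those shares do not apply. Cxcl13 differed by 4.73 ± 1.16 (SE; limma adjusted p = 0.0977) in males and Ccl6 by 1.56 ± 0.58 (SE; limma adjusted p = 0.275). Without KO male 39 the male difference of Cxcl13 was 6.02 and was called (limma adjusted p = 0.0335).

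A larger difference in one sex was not shown for any of the 10 genes. The interaction of genotype and sex was called for 0 genes by limma, where 0.00152% of all features were called. At an unadjusted p under 0.05 there was 1, a limit to which that share does not apply. Cxcl1 had the lowest p among the 10 genes, with a female minus male difference of the genotype effects of 3.53 ± 1.52 (SE; limma adjusted p = 0.73). Cxcl13 had 3.18 ± 1.63 (SE; limma adjusted p = 0.794). Between the sexes themselves, over both genotypes, 0 of the 10 genes were called, where 1.23% of all features were called. At an unadjusted p under 0.05 there were 2, again without a share of all features at that limit. Those 2 were Cxcl10, at 0.27 ± 0.08 female minus male (SE; limma adjusted p = 0.189), and Cxcl12, at -0.37 ± 0.14 (SE; limma adjusted p = 0.281).

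The KO livers were not ordered alike by all members. KO female 40 was highest for Cxcl9, Ccl5 and Ccl6 and lowest of the KO group for Cxcl12, each above the negative control percentile in that liver. KO females 13 and 69 were highest for Cxcl13 and Cxcl1. KO male 19 was the lowest KO liver for Cxcl9, yet its Cxcl13 of 16.11 was the highest among the KO males. Values below the percentile, among them all of Cxcl2, Cxcl10, Ccl2 and Ccl24, were not ranked among the KO livers.

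Members that neighbour each other on a chromosome gave KO minus WT estimates of different size, and no test compared these. On chromosome 5 lie 6 of the 10 genes and on chromosome 11 lie 3, where the other measured chemokine genes also cluster. In the chromosome 11 run Ccl5, Ccl9, Ccl6, Ccl3 and Ccl4, which has 0 protein-coding genes between neighbours in RefSeq, the differences were 1.28, 0.00, 2.03, 0.91 and 0.16. Ccl3 and Ccl4 exceeded the negative control percentile on no array and Ccl5 on 1, as Cxcl2, Cxcl10 and Ccl2 did on none. Below the percentile a log2 difference says little about the size of a change, so these sizes cannot be set against each other. Ccl9, named here for its place between Ccl5 and Ccl6 and after its values were seen, lay at 9.05 to 11.67 in KO and 9.12 to 12.09 in WT livers, above the negative control percentile on all 12 arrays and with overlapping groups.

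Of 27 other chemokine ligands measured, 3 were called higher in KO and 1 lower, where 5.28% of all features were called higher and 4.47% lower, and the median difference was 0.06. Ccl3, a ligand of Ccr1, differed by 0.91 ± 0.16 (SE; limma adjusted p = 0.00732), Cxcl14, a chemokine of epithelia, by 0.61 ± 0.14 (SE; limma adjusted p = 0.0242) and Ppbp, the platelet precursor of neutrophil-activating peptide, by 1.85 ± 0.50 (SE; limma adjusted p = 0.0443). Ccl27a, a skin T cell chemokine, was called lower, at -0.34 ± 0.08 (SE; limma adjusted p = 0.0227). Among them, 25 of the 27 exceeded the negative control percentile on no array, and Ppbp did so on 1. The higher count was 1 when WT male 23, WT male 33, WT female 38 or KO male 18 was left out, and without WT females 25 and 27 it was 1 higher and 0 lower.

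**Figure D3:**
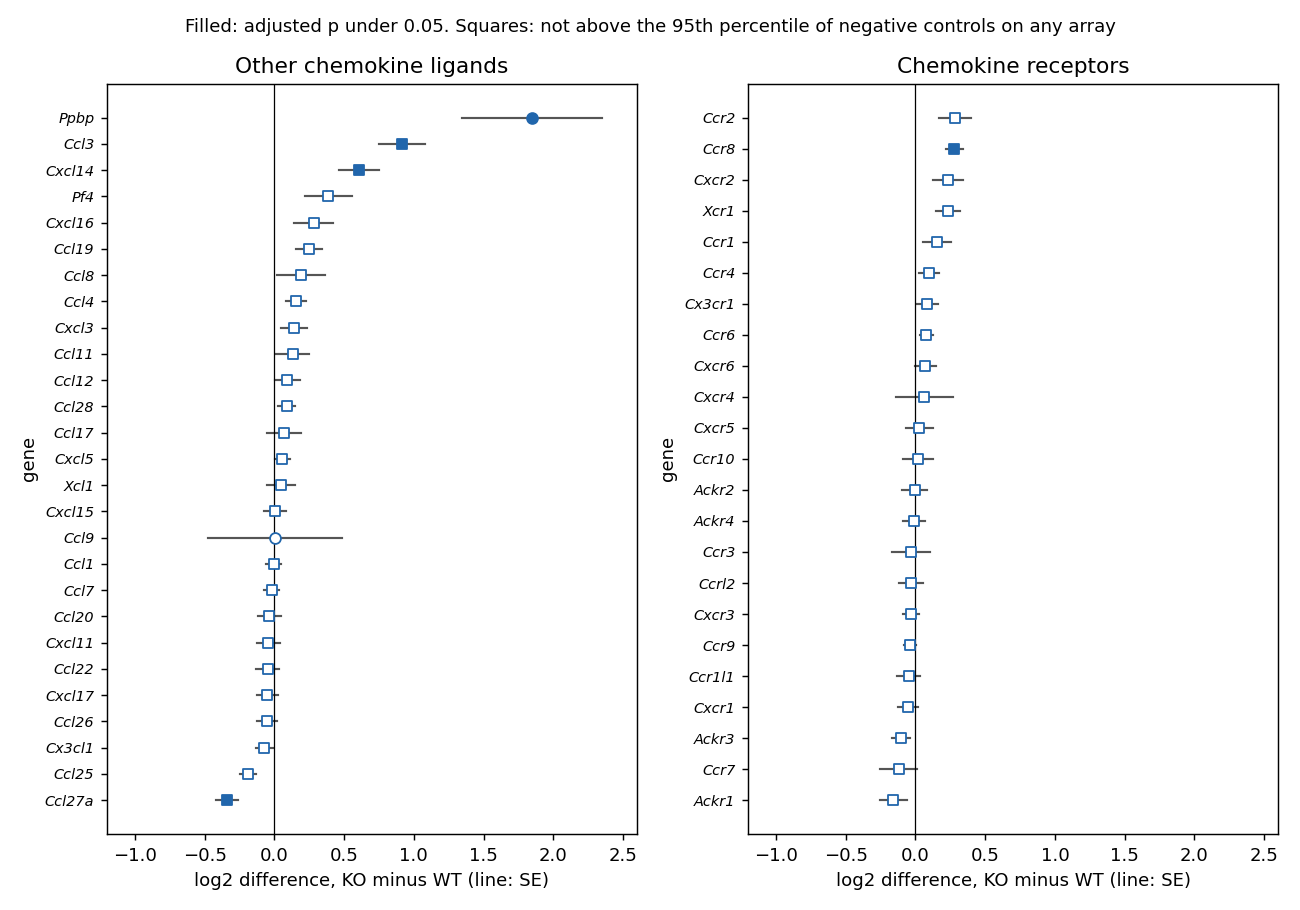
KO minus WT difference in mean log2 signal over both sexes (horizontal axis) of the 27 other chemokine ligands and the 23 chemokine receptors measured. Lines are standard errors, filled points passed a limma adjusted p of 0.05, and squares mark genes above the negative control percentile on no array. Most of the other ligands lie near 0, with Ppbp at 1.85 and Ccl3 at 0.91 the farthest above it.

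All 23 measured chemokine receptors stayed below the negative control percentile on every array. Only 1 was called higher, Ccr8, a receptor of skin and regulatory T cells (0.28 ± 0.06 SE, limma adjusted p = 0.018), and the median difference was 0.02. Over the whole array 5.28% of features were called higher and 4.47% lower. With arrays centred on their median 0 receptors were called, and likewise 0 without WT females 25 and 27. The receptors of the members gave 0.03 for Cxcr5 (receptor of Cxcl13), 0.23 for Cxcr2 (of Cxcl1 and Cxcl2), -0.03 for Cxcr3 (of Cxcl9 and Cxcl10), 0.06 for Cxcr4 (of Cxcl12), 0.28 for Ccr2 (of Ccl2) and -0.03 for Ccr3 (of Ccl24), and none of these 6 was called by limma; they were named for their ligands, not by the rule for named genes.

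Among genes of the NF-kB pathway and the cytokines that induce chemokines, 13 of 23 measured were called higher and 0 lower, with a median of 0.45. In this list 10 exceeded the negative control percentile on at least 3 arrays. Among all such features 16.2% were called higher and 20.2% lower. Of all features, 5.28% were called higher and 4.47% lower. The cytokine genes Il1a (0.45 ± 0.30 SE), Il1b (0.99 ± 0.47 SE) and Il6 (-0.03 ± 0.07 SE) were not called, nor was Rela (0.12 ± 0.18 SE). The 13 called included Vcam1, an endothelial adhesion molecule (3.77 ± 0.41 SE, limma adjusted p = 0.000937), Irak3, which restrains Toll-like receptor signals (2.35 ± 0.29 SE), the lipopolysaccharide co-receptor gene Cd14 (1.08 ± 0.14 SE) and Tnf (0.40 ± 0.05 SE), whose signal was below the negative control percentile on every array. The count was 9 without KO male 19 and WT female 38, 6 without WT females 25 and 27 and 7 with no term for sex. Of 25 interferon genes, 1 was called higher and 3 lower, where 5.28% of all features were called higher and 4.47% lower, and the median was 0.08. In the interferon list 13 exceeded the negative control percentile on at least 3 arrays, where 16.2% of features were called higher and 20.2% lower. Ifngr1, a chain of the interferon gamma receptor, differed by 1.08 ± 0.24 (SE), and the 3 lower ones were Usp18, an interferon-induced gene (-1.62 ± 0.40 SE), Irf9 (-0.75 ± 0.20 SE) and Ifnar1 (-0.28 ± 0.07 SE). Of 13 lymphotoxin and lymphoid follicle genes, 1 was called, Tnfsf13b, the B cell survival factor BAFF (0.30 ± 0.06 SE, limma adjusted p = 0.0111), and the median was 0.06. The interferon list had 2 higher and 6 lower with quantile normalization and 1 higher and 6 lower with centring. It had 0 lower without WT male 33 or without KO female 69, and 0 to 4 lower over the 12 fits with a mouse left out. The lymphoid follicle list had 0 called with quantile normalization, with centring or with no term for sex. Without WT females 25 and 27, the interferon list had 0 higher and 1 lower and the lymphoid follicle list 0 of either. With the poly-A spike mean as a covariate 0 genes were called in each list of other ligands, receptors, inducers and cell markers.

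Marker genes of several leukocytes moved beside the chemokines. Of 14 Kupffer cell markers, 10 were called higher and 1 (Cd163, -1.74 ± 0.19 SE) lower, with a median difference of 2.44, against 0.0478 over all features, and the mean of the list ranged from 8.91 to 12.17 in KO and from 7.45 to 8.69 in WT livers, highest in KO female 40. The scavenger receptor gene Marco differed by 6.27 ± 0.73 (SE), the receptor gene Csf1r by 3.07 ± 0.48 (SE) and the complement gene C1qc by 2.49 ± 0.33 (SE). The 3 not called were Clec4f (0.21 ± 0.41 SE), Folr2 (0.35 ± 0.56 SE) and Fcna (1.21 ± 0.37 SE). All 14 exceeded the negative control percentile on at least 3 arrays, and of such features 16.2% were called higher and 20.2% lower. Monocyte and recruited macrophage markers had 7 of 13 called higher and 0 lower, with a median of 1.81 and list means of 5.75 to 8.17 in KO and 4.85 to 5.27 in WT livers. The Fc receptor gene Fcgr4 differed by 6.47, Clec4a3 by 4.41 and the integrin genes Itgam and Itgax by 1.82 and 1.91. The 6 not called were Lyz2 (1.84), Ly6c2 (1.81), F13a1 (0.49), Gpnmb (0.29), Ccr2 (0.28) and Trem2 (-0.03). Neutrophil markers had 9 of 14 higher and 0 lower, with a median of 0.94 and means of 4.83 to 7.54 in KO and 4.07 to 4.53 in WT livers. The calprotectin genes S100a8 and S100a9 differed by 8.30 and 7.73, Retnlg by 4.58 and Csf3r by 0.71. The 5 not called were Ly6g (0.72), Mmp9 (0.69), Elane (0.51), Cxcr2 (0.23) and Stfa1 (0.15). Of the 14, 8 exceeded the negative control percentile on no array, Csf3r among them. On at least 3 arrays 5 of these neutrophil markers and 7 of the 13 monocyte markers exceeded it. The shares of 16.2% higher and 20.2% lower apply to such features. Of all features, 5.28% were called higher and 4.47% lower. Without WT females 25 and 27 the counts were 3 higher and 1 lower for Kupffer cells, 5 higher for monocytes and 2 higher for neutrophils.

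Most lymphocyte markers were dim, apart from the immunoglobulin gene Ighm and, in 1 liver, the granule protease gene Gzma. For the counts that follow, 5.28% of all features were called higher and 4.47% lower. B cell markers had 2 of 11 called higher, Ighm (2.39 ± 0.38 SE) and Cd79b (0.55 ± 0.14 SE), with a median of 0.03 and means of 4.14 to 4.62 in KO and 3.94 to 4.26 in WT livers, and 10 of the 11 exceeded the negative control percentile on no array. Ighm exceeded it on 6 arrays and ran from 6.06 to 9.61 in KO and from 4.77 to 6.54 in WT livers, so the genotypes overlapped. The B cell count of 2 was 1 in 8 of the 12 fits with a mouse left out, with centring, with no term for sex and without WT females 25 and 27, and with quantile normalization it was 1 higher and 1 lower. T and NK cell markers had 0 of 15 called by limma (3 at an unadjusted p under 0.05), with a median of 0.14 and means of 4.01 to 4.82 in KO and 3.89 to 4.11 in WT livers, highest again in KO female 40. Their brightest features, of Gzma and Nkg7, differed by 1.51 ± 0.66 and 0.46 ± 0.23 (SE). Gzma reached 9.49 in KO and 4.90 in WT livers and exceeded the percentile on 1 array. Eosinophil markers had 0 of 6 called (1 at an unadjusted p under 0.05) and dendritic cell markers 1 of 9 (Clec9a, 0.38 ± 0.09 SE), all below the percentile on every array; the 2 brightest eosinophil features, Ear6 and Siglecf, differed by 0.19 and 0.01. The Clec9a call was lost with quantile normalization, without WT male 17, without WT male 23 and without WT females 25 and 27. The part of any of these cell types in the chemokine differences was not tested.

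**Figure D4:**
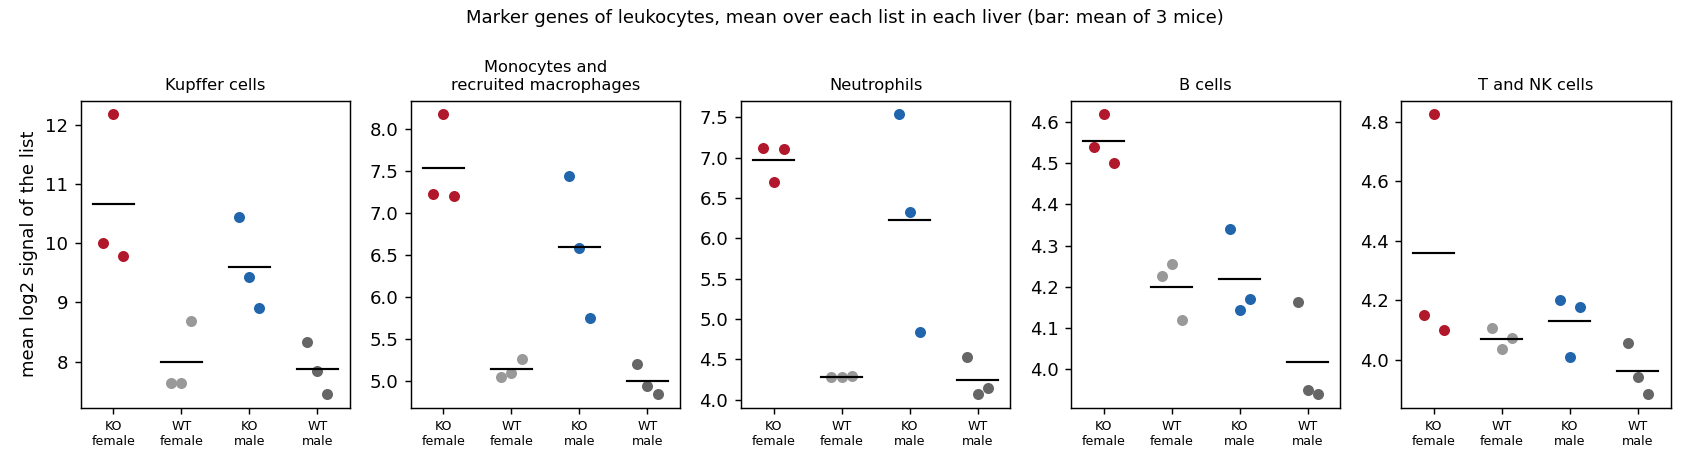
Mean log2 signal of each marker list (vertical axis) in each of the 12 mice, with KO and WT side by side within each sex; points are mice and bars are means of 3 mice. The Kupffer cell, monocyte and neutrophil lists lie higher in all 6 KO livers than in all 6 WT livers.

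Resident and other cells were read through their markers as well. Over the whole array 5.28% of features were called higher and 4.47% lower. Among features above the negative control percentile on at least 3 arrays, the shares were 16.2% higher and 20.2% lower. Such features include 10 of the 11 endothelial markers. Endothelial markers had 4 of 11 called higher and 2 lower, among them Pecam1 (1.14) and Cdh5 (0.76) higher and Kdr (-0.63) and Clec4g (-1.46) lower. The balance turned with the scaling, to 3 higher and 5 lower with quantile normalization and 4 higher and 4 lower with centring, and it was also 4 and 4 without KO female 40. Stellate cell and fibroblast markers had 0 of 12 called (1 at an unadjusted p under 0.05; Dcn at 0.26 and Rgs5 at 0.20). Hepatocyte markers had 0 of 11 called (0 at an unadjusted p under 0.05), with means of 18.18 to 18.59 in KO and 18.05 to 18.69 in WT livers. Of these 11, 5 (Alb, Apoa1, Ttr, Cps1 and Cyp2e1) lay at the ceiling of 19.93 on all arrays and so could not be called. In every KO liver 2 more (Cyp3a11 and Tat) lay there. That leaves 4 that were not at the ceiling in every KO liver, though they may reach it on some arrays. Exocrine pancreas markers had 0 of 7 called (1 at an unadjusted p under 0.05; Cela1 at -1.85 and Ctrb1 at -3.19), but all 7 were called lower when WT female 38 was left out (median -2.66), with WT females 25 and 27, the high livers, kept. Mesothelial markers had 1 of 6 called, the keratin gene Krt8 that hepatocytes also express, which was lower (-1.08 ± 0.23 SE) and was not called without WT females 25 and 27. Cholangiocyte markers had 1 of 6 called, Tff3, a mucosal peptide gene, which was higher (6.51 ± 1.57 SE). The lowest KO liver, at 7.52, lay below the highest WT liver, at 10.37, so the genotypes overlapped. No cholangiocyte marker was called in 8 of the 12 fits with a mouse left out, nor without WT females 25 and 27.

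The genes most like the called members over the 12 arrays were named by Pearson r among 5652 named protein-coding genes above background and below the ceiling. For Cxcl13 these were Nsmaf (r = 0.98, difference 0.28), Rbm17 (r = 0.98, difference 0.59) and Tapbp (r = 0.96, difference 0.68). For Ccl6 they were Ly86 (r = 0.99, difference 2.51), AB124611 (r = 0.99, difference 1.43) and Clec1b (r = 0.99, difference 1.81). The 12 points share genotype, sex and array quality, so the r values describe these livers and carry no test.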

How the data were processed

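Liver RNA of 12 mice was measured on 12 Affymetrix arrays. The deposited values are log2 signals per feature. The submitters' processing notes name Transcriptome Analysis Console, and no source used here gives the normalization or the genome build. All arrays shared a ceiling at 19.93 log2, and array medians lay at 3.76 to 3.89; a fold difference is one on that deposited scale. Arrays carry no read depth; their number limits the precision. From the 72688 features, 6732 controls were left out and 65956 transcript features were fitted with limma 3.58.1 (R 4.3.3) as 4 group means, with Benjamini-Hochberg adjustment over all of them and no filter on dim features. A feature with 1 Entrez ID took the current RefSeq symbol of that ID, otherwise its sole symbol; 31388 features had 1 symbol, 1362 several (not named) and 33206 none. RefSeq tables of GRCm38.p6 gave chromosomes, neighbours and promoters.

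The members and the lists of related genes and cell markers were chosen with earlier results of these data known. Named genes were Slc29a3, all members, of each list up to 4 genes with the smallest p among those called (with none called, the 2 of highest mean signal or, in a tie at the ceiling, the first 2 listed), and the 3 genes most like each called member. Receptors of the members and Ccl9 were named outside this rule. Array measures were compared by exact two-sided permutation of genotype within sex. On simulated data of 65956 features for KO minus WT over both sexes, 46%, 94%, 98% and 100% of features changed by 0.5, 1, 2 and 4 log2 units were recovered, with 4 false calls. The simulated noise was normal and equally wide in every group, without array differences by genotype, and the changed features were drawn at random. Members such as Cxcl9 (SD 2.85 in KO and 0.73 in WT livers) vary otherwise, so these shares do not give the power or error for the members. The alternatives were quantile normalization, centring on the array median, the poly-A spikes as a covariate, dim features left out, the mean of all features of a gene, no sex term, trended robust variances, each mouse left out, and 2 pairs of mice left out (added after seeing the data).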

Additional observations from a re-analysis of the deposited data

Results flagged for a closer look

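In 2 of the 20 groups of 6 mice tested (10 genes in KO and in WT), 1 mouse lay far from the other 5 by Dixon's criterion; chance alone gives about 1 in 20. Ccl5 was 8.37 in KO female 40, where the other 5 KO mice lay at 5.25 to 6.37. Cxcl1 was 6.79 in WT male 17, where the other 5 WT mice lay at 4.64 to 4.90.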

How the results depend on the processing

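The 2 members called over both sexes became 4 with quantile normalization, with dim features left out or with trended robust variances, 5 with centring and 0 with the poly-A covariate, and ranged from 2 to 4 with a mouse left out (4 without KO female 40 or KO female 69). With no term for sex, 2 members were called higher and 1 lower. In females the count of 2 became 1 with the poly-A covariate, 4 with dim features left out, 1 without KO male 19 and WT female 38 and 1 without WT females 25 and 27, with 1 to 3 over the fits leaving out a mouse. In males the count of 0 became 1 with dim features left out, and was 0 to 1 with a mouse left out. The 6432 features called became 3 with the poly-A covariate; other settings gave 4415 to 6646. The cause was not tested, except that leaving out dim features cut the features adjusted for to 10483. Cxcl9 was called with quantile normalization (limma adjusted p = 0.0422), centring (0.0488), dim features left out (0.0211) and trended variances (0.0426). Ccl24 was called with quantile normalization (-0.40) and centring (-0.37).

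Signs turned for differences that the report gives as not called. With the poly-A covariate, over both sexes Cxcl2 was -0.19 and Cxcl10 -0.025, in females Cxcl2 was -0.10, and in males Cxcl1 was -1.26, Cxcl2 -0.28, Cxcl9 -0.27, Cxcl10 -0.062 and Ccl2 -0.088. In males Cxcl2 was -0.025 and Ccl2 -0.020 with quantile normalization, and Cxcl2 -0.040 with centring; with a mouse left out, Cxcl1 ran from -0.16 to 0.89 and Cxcl2 from -0.074 to 0.078. Of the settings for single genes, 539 kept sign and call, 27 gained a call, 12 lost one and 17 changed sign. No paired analysis was possible because no animal number occurs in more than 1 group. Signals below the negative control percentile limit Cxcl2, Cxcl10, Ccl2 and Ccl24, and 3 mice a group limit the comparisons within a sex.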
